A study of Mus musculus with 365 samples.

Results

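The TN subpopulation of EPLM, early progenitors of the bone marrow that can give rise to lymphoid and myeloid cells, comprised 213 of the 365 cells in the data, chosen by their source label. They came from the femurs of C57BL/6 mice that carry a Flt3 ligand transgene (Flt3Ltg), in pools of 2 mice, and were captured on 3 Fluidigm C1 chips that hold 75, 69 and 69 cells. The other 152 cells of the series are the Ly6D+ subpopulation on chips of its own, from the same transgenic strain, and are not described. Every cell therefore carries the transgene, and no wild-type cells are at hand. TN stands for triple negative in the labels. In the published gating of these progenitors the name means that the cells were sorted as negative for Ly6D, SiglecH and CD11c. The labels give neither the age of the mice nor the promoter of the transgene. They do not tie animals to chips either, so differences between chips may be technical or may come from the animals. Values for chips 1, 2 and 3 are given in that order, and ± is the SD over the 3 chips.

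Flt3 ligand is a growth factor whose receptor, Flt3, marks early lymphoid and dendritic progenitors, and an excess of it expands them in the marrow. Such progenitors stand near a branch point. Granulocyte and monocyte precursors build up granule proteins such as Mpo, dendritic precursors depend on Irf8 and take up the MHC class II machinery, and lymphoid precursors switch on Dntt and the recombinase genes. A gate set by a few surface proteins can hold cells of several such programs.

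Each cell gave between 267852 and 1372556 reads, with chip medians of 823684, 808034 and 750934. Levels are given as TPM, reads scaled by gene length and by the cell's total. A gene was counted as detected in a cell when it held at least 5 of 200000 reads drawn at random from that cell (25 CPM). On this measure a cell held 2609, 2510.2 and 2443 genes on average, a mean of 2521 ± 83.6 (SD, n = 3 chips), and single cells ranged from 622 to 3997. Without molecular identifiers the reads are not independent molecules, and a gene at 0 reads in a cell may be absent or may have been lost in amplification; these cannot be told apart. Xist, which female cells express, was detected in 41 cells of chip 2 and in none on chips 1 and 3, and Y-linked genes were detected in 56, 17 and 53 cells. No cell held both, which on chip 2 allows a share of up to 4.35% of cells (3 counts of 69, counting error only). Genes with near-identical copies are uncertain. Gapdh, an enzyme of glycolysis that all cells use, was listed at 2.33, 2.08 and 2.40 TPM, and Ubb and its copy Ubb-ps stood at 1369 and 1638 TPM.

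The genes named as markers of these cells did not all mark the same cells. Cst3, the gene of the secreted protease inhibitor cystatin C, was detected in 86.7%, 87.0% and 92.8% of cells. Vim, the intermediate filament vimentin, was detected in 82.7%, 88.4% and 89.9% and Irf8, a transcription factor of the dendritic and monocyte lineages, in 72%, 75.4% and 92.8%. Cd93, a surface glycoprotein used in the sort of these progenitors, was detected in 70.7%, 69.6% and 76.8%. These genes were thus present in most cells on every chip. Mpo, the myeloperoxidase of granules, was detected in only 34.7%, 31.9% and 37.7% of cells. All 5 were detected together in 57 of 213 cells, 4 in 72 cells and none in 6.

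The signal of Mpo lay in fewer cells than that of the other 4 genes. Its mean level was 1479.6, 882 and 1533 TPM while its median over cells was 0 on each chip, and its highest cells reached 36159, 17078 and 25517 TPM. The 8, 7 and 7 highest cells of chips 1, 2 and 3 held 92.8%, 85.7% and 81.7% of its signal. For Cst3 that share was 63.0%, 56.5% and 48.2%, and the median cell held 1196, 1628 and 1977 TPM. Cd93 was the most even of the 5 on chip 1, with 34.0%, 32.3% and 29.3% of its signal in as many cells and a median of 189, 324 and 450.0 TPM. The medians of Cst3, Vim, Irf8 and Cd93 were each lowest on chip 1 and highest on chip 3.

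**Figure D1:**
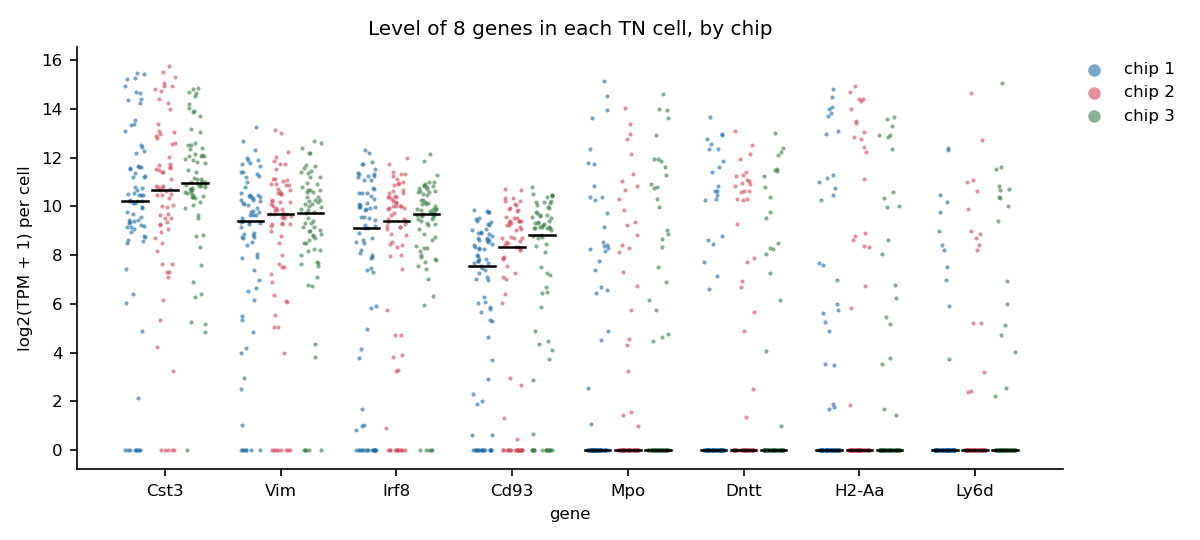
Level of the 5 marker genes and of Dntt, H2-Aa and Ly6d in each of the 213 TN cells, as log2(TPM + 1) on the vertical axis, with 1 point per cell, colour by chip and a black line at the chip median. Cst3, Vim, Irf8 and Cd93 have medians well above 0 on each chip, while Mpo, Dntt, H2-Aa and Ly6d have medians of 0 and some cells at high levels.

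The sorting genes were checked at the transcript level. Ptprc, which encodes CD45 and whose B220 form is used in the sort, was detected in 82.7%, 76.8% and 81.2% of cells, and Kit, the stem cell factor receptor, in 41.3%, 39.1% and 21.7%. Klrb1c, which encodes NK1.1, was detected in 1 of 213 cells. Siglech, the plasmacytoid dendritic lectin, was detected in 9.33%, 8.70% and 10.1% and Itgax, which encodes CD11c, in 12%, 2.90% and 10.1%. Ly6d was detected in 13.3%, 15.9% and 17.4%, 33 of 213 cells, although the cells were sorted as negative for its protein. Most of that transcript lay in few cells, since the single highest cell of each chip held 37.4%, 54.7% and 71.9% of the chip's Ly6d reads.

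Markers of other cell types were at or near 0 with few exceptions. Of 10 genes of mature neutrophils none reached 5% of cells, and S100a8, S100a9, Ltf, Camp, Lcn2 and Retnlg had no read in any TN cell. Of 14 erythroid genes 8 had no read, among them Gata1 and Klf1, while Tfrc, the transferrin receptor that dividing cells also use, was detected in 60%, 58.0% and 52.2%. Of 14 megakaryocyte, mast cell and basophil genes 8 had no read, and the most widely detected was Cpa3, a mast cell carboxypeptidase, in 5.33%, 2.90% and 10.1% of cells. A gene detected in 0 of 213 cells could be detected in up to 1.41% of such cells, by counting error only. Cells that express it and lost its cDNA are not covered by that limit. Collagens, Cxcl12 and Lepr of stroma had no read, whereas Pecam1, which blood progenitors share with endothelium, was detected in 34.7%, 39.1% and 46.4%. Of 6 genes of committed B cells (Igll1, Vpreb1, Vpreb3, Cd79a, Ebf1 and Pax5), 10 cells held 1, 2 cells of chip 2 held 5 and 6, and the rest held none. A single cell carried 92.4% of all Igll1 reads.

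The most abundant transcripts included those of actin and its partners and of ribosomal proteins. Actb, cytoplasmic actin, led with 8555, 14957 and 13966 TPM. Tmsb4x, which sequesters actin monomers, followed with 7517, 8559 and 8586 TPM. Plac8, a protein of early haematopoietic and myeloid cells, reached 6399.7, 6105 and 10718 TPM, B2m, the light chain of MHC class I, 5539, 7036 and 10389 TPM, and Gpx1, a peroxide-reducing enzyme, 7236, 6723 and 7679.6 TPM. Cst3 followed Gpx1 at 5971 ± 906 TPM. Plac8 and B2m were both highest on chip 3, and Actb lowest on chip 1.

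Ribosomal proteins made up 8 of the 25 leading genes, from Rpl4 at 5404 ± 595 TPM to Rplp0 at 2625 ± 256 TPM. The chaperones Hsp90ab1 at 4653 ± 427 TPM and Hspa8 at 2555 ± 805 TPM were among them, as were the elongation factor Eef1a1, the ribosome-bound scaffold Rack1, the ADP/ATP carrier Slc25a5 and the respiratory chain subunit Cox6a1. Genes of blood cells in the same group were Ly6e at 3725 ± 1278 TPM, Arhgdib, an inhibitor of small GTPase cycling, at 3659 ± 303 TPM, and Tyrobp, the signalling adaptor DAP12, at 2588 ± 689 TPM. Sh3bgrl3 and a row without a symbol, Entrez100861531, completed the 25, and the latter was 3490.4, 3955 and 1386 TPM. Together the 25 genes took 11.2%, 11.3% and 12.5% of the TPM signal, 11.7% ± 0.724, and 21 of them were among the 25 highest on each chip taken singly.

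Breadth did not follow from abundance alone. In every one of the 213 cells 21 genes were detected, 9 of them named as ribosomal proteins. Outside that class they included Actb, B2m, Malat1 (a nuclear non-coding RNA), the 14-3-3 proteins Ywhae and Ywhaz, and Actr2 of the actin-branching Arp2/3 complex. Myh9, non-muscle myosin heavy chain, and Lars2, the mitochondrial leucyl-tRNA synthetase, belonged to this group at only 123 ± 44.9 TPM and 91.4 ± 16.3 TPM. Detection counts reads, so a long transcript is detected at a lower TPM than a short one. Further, 1143 genes were detected in at least 50% of the cells of each chip, of 12653 detected in at least 1 cell. The count of 21 rose to 57 once the 16 cells with fewer than 1500 genes were left out, and to 37 without chip 2.

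Cell-to-cell spread was measured as the coefficient of variation (CV, the SD over the mean of CPM across the cells of a chip), for the 4620 genes with a mean of at least 50 CPM on chip 1. Their median CV was 2.24, 2.22 and 2.33. The 100 most uniform genes of chip 1 had a median of 0.461, 0.522 and 0.541, and 82 and 80 of them were also among the 100 most uniform on chips 2 and 3, which the choice had not used. Of those 100, 62 were named as ribosomal proteins. The lowest CV on chips 1 and 2 was that of Rpl41, 0.323, 0.355 and 0.409. On chip 3 it ranked 6. Eef1a1 followed on chip 1, with 0.326, 0.411 and 0.509, and Ptma, a small acidic nuclear protein, had 0.377, 0.389 and 0.399. Ywhae had 0.415, 0.492 and 0.585. Rps19-ps3, Gm6548 and Rpl37rt, copies of ribosomal and elongation factor genes, sat beside their parent genes in this list and are uncertain for that reason.

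Uniformity went with level, so the spread has to be read at matched level. Genes with a chip 1 mean of 50 to 200 CPM had a median CV of 2.47, 2.49 and 2.60, against 0.657, 0.697 and 0.706 for the 78 genes at 1000 CPM or more. Within those 78 the widest spread on chip 1 belonged to Mpo (3.68, 3.16 and 2.96), Dntt, the DNA polymerase that adds untemplated bases to antigen receptor joints (2.44, 2.10 and 2.54), and Cst3 (1.92, 1.86 and 1.503). Of the antiproliferative genes Btg2 had 1.86, 1.32 and 1.14 and Btg1 1.80, 1.36 and 1.58. Fos had 1.62, 1.12 and 1.09, Cd69, an early activation antigen, 1.36, 1.56 and 1.55, Vim 1.35, 1.33 and 1.14 and Irf8 1.21, 1.05 and 0.930. On chip 3 Btg1 and Cd69 exceeded Cst3. Cst3, Vim and Irf8 were at the same time detected in most cells.

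**Figure D2:**
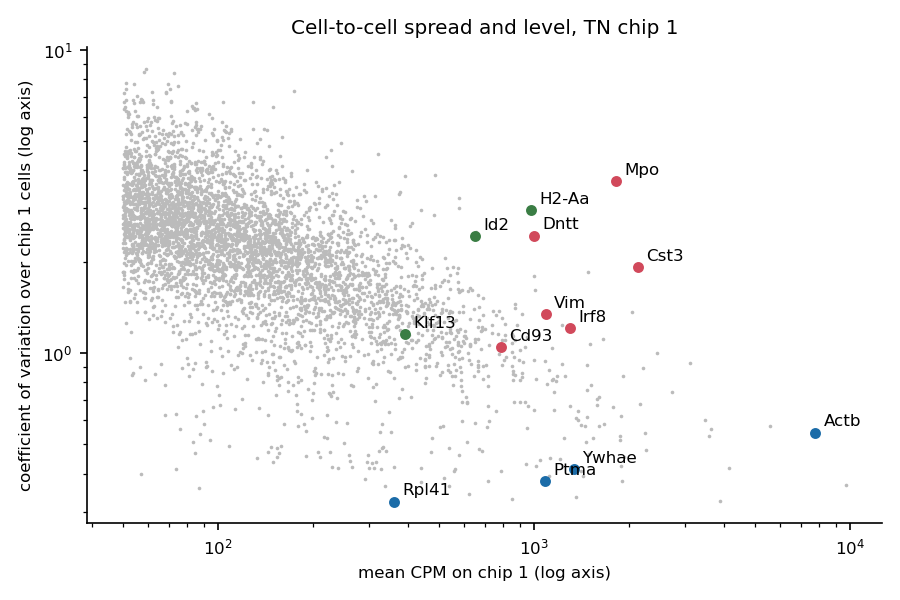
Coefficient of variation over the cells of chip 1 against mean CPM on chip 1, on log axes, for genes with a mean of at least 50 CPM (1 grey point per gene). Blue points are genes of low spread, red points the 5 markers and Dntt, and green points Klf13, Id2 and H2-Aa, with Mpo, H2-Aa, Id2, Dntt and Cst3 above the bulk of genes of like level.

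Of 101 transcription factors listed, 46 were detected in at least 20% of cells. Klf13, a Krüppel-like factor, was the most widespread, in 96%, 95.7% and 98.6% of cells at 216 ± 73.5 TPM. Fli1, an ETS factor of blood and endothelium, was detected in 86.7%, 89.9% and 87.0%, and Mef2c, a factor of lymphoid and myeloid progenitors, in 80%, 91.3% and 75.4%. Tcf4, the E protein of plasmacytoid dendritic cells, was detected in 78.7%, 81.2% and 84.1%, Elf1 in 74.7%, 78.3% and 84.1%, Foxp1 in 82.7%, 76.8% and 76.8% and Ikzf1, which encodes Ikaros, in 80%, 72.5% and 69.6%. Fos and Jun, the immediate early partners of AP-1, were detected in 84%, 82.6% and 89.9% and 72%, 68.1% and 85.5%. With Irf8 these are the 10 most widely detected members.

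Among these 10 only Fos had a higher mean than Irf8, which stood at 938 ± 36.4 TPM. Irf8 was detected in more cells on chip 3 than on the other chips. Runx2 (68.0% ± 5.19), Runx3 (58.1% ± 10.5) and Runx1 (48.9% ± 0.736 of cells) were all in use, and so was Myb in 60.9% ± 5.02. Spi1, which encodes PU.1, was detected in only 17.3%, 23.2% and 13.04% of cells at 39.5 ± 11.9 TPM. Cebpa, the granulocyte and monocyte factor, was detected in 12%, 11.6% and 14.5%. Low detection of a factor at such a level says little on its absence in a given cell.

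Id2, Batf3 and Tcf7 were undetected in many cells but reached high levels where they were detected. Id2, an inhibitor of E proteins, was detected in 42.7%, 43.5% and 50.7% of cells, with a median of 1892 TPM in the cells that had it, and its mean of 1713 ± 619 TPM exceeded that of Irf8 on each chip. Batf3, required for cross-presenting dendritic cells, was detected in 13.3%, 13.04% and 10.1% with a median of 949 TPM where detected. Tcf7, which encodes TCF-1, was detected in 16%, 8.70% and 8.70% with 1522 TPM where detected, and Gata3, of T and innate lymphoid cells, in 12%, 10.1% and 10.1% with 182 TPM. For comparison the median of Klf13 where detected was 155 TPM. Ebf1 of B cells was detected in 4%, 5.80% and 1.45% and Pax5 in 1 cell. Gata1, Klf1 and Cebpe, the factors of red cell and late granulocyte development, had no read in any cell.

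Of 104 receptors and surface proteins, 46 were detected in at least 20% of cells. Ly6e, Cd53 (a tetraspanin), Tyrobp, Cd52 and Cd48 led with 98.1% ± 0.703, 93.4% ± 1.82, 87.7% ± 5.68, 85.9% ± 2.86 and 82.1% ± 4.65 of cells. Fcer1g, the Fc receptor gamma chain, was detected in 74.7%, 79.7% and 82.6%. Homing molecules were widespread, with Cd44 in 77.3%, 78.3% and 78.3%, Selplg, the P-selectin ligand, in 72%, 81.2% and 76.8%, and Itga4 in 69.3%, 62.3% and 55.1%. Notch2 was detected in 62.7%, 85.5% and 75.4% and Notch1 in 37.3%, 43.5% and 31.9%.

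Cytokine receptors were more selective. Flt3, the receptor of the transgenic ligand, was detected in 60%, 60.9% and 49.3% of cells at 179 ± 12.5 TPM. Csf1r, the receptor of macrophage colony-stimulating factor, was detected in 30.7%, 27.5% and 34.8%, and Csf2rb, the shared beta chain of the interleukin 3 family of receptors, in 30.7%, 23.2% and 33.3%. Il7r, the lymphoid interleukin 7 receptor, was detected in 16%, 20.3% and 10.1% at 699.5 TPM where detected, and its partner chain Il2rg in 45.3%, 30.4% and 34.8%. Csf3r was detected in 10.7%, 2.90% and 17.4% and Il3ra in 6.67%, 5.80% and 1.45%. Il5ra had no read, and Epor was not detected in any cell. Among chemokine receptors Ccr2, which guides monocyte egress, was detected in 44%, 42.0% and 34.8% and Cx3cr1 in 13.3%, 18.8% and 29.0%. Cxcr4, which retains cells in marrow, was detected in 12%, 14.5% and 42.0%, with chip 3 far above the others.

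**Figure D3:**
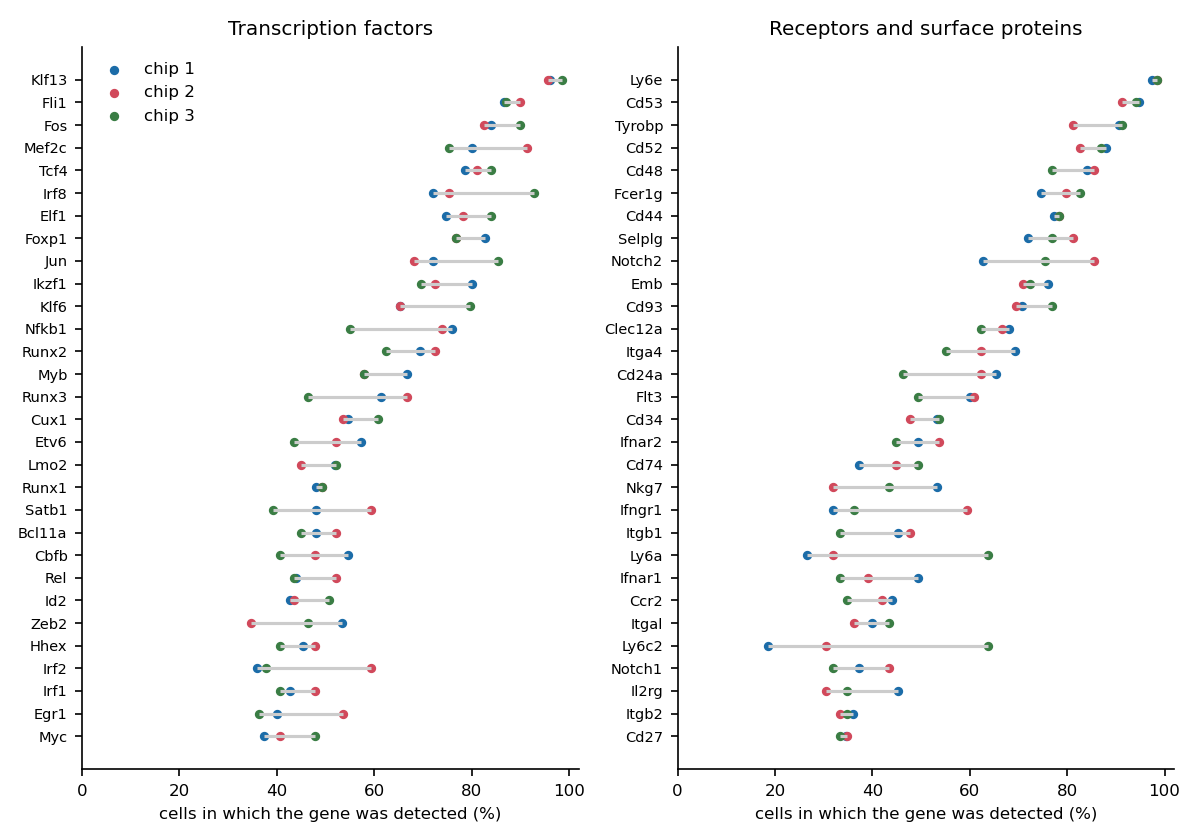
Share of cells in which each of 30 widely detected transcription factors and 30 widely detected receptors and surface proteins was found, in percent, with 1 point per chip and a grey line over the range of chips. Klf13 and Ly6e lead, and Ly6a and Ly6c2 have the widest ranges, with chip 3 highest.

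Chip 3 stood apart in interferon-responsive genes. Cells there held 3.37, 4.01 and 6.36 of the 17 genes on that list on average (chips 1, 2 and 3), with a summed level of 4319.8, 3996 and 9288 TPM. Ifi27l2a was detected in 46.7%, 65.2% and 94.2% of cells, Usp18, a negative regulator of interferon signalling, in 20%, 23.2% and 52.2%, and Irf7, which amplifies interferon production, in 14.7%, 23.2% and 50.7%. The surface genes Ly6a and Ly6c2, which interferon also raises, were detected in 26.7%, 31.9% and 63.8% and 18.7%, 30.4% and 63.8%. In each of these genes chip 3 was highest and chip 1 lowest, and with 1 chip against 2 no test was made. Kit went the other way, as given above. Whether mice or handling differed for that chip is not stated in the labels, and their part was not tested.

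On/off genes were those with 0 of 200000 reads in at least 25% of cells, 20 or more (100 CPM) in at least 25%, and at most 15% of cells between. Chip 1 gave 177 such genes, of which 42 met the rule again on chip 2, 43 on chip 3 and 23 on both. This is 23.7% and 24.3% of the choice. Much of the chip 1 list therefore did not carry over: its median share of cells between was 12%, 17.4% and 15.9%. Of all genes with at least 25% of cells off and 25% on, 14.7% on chip 2 and 14.1% on chip 3 met the rule. These shares are not like for like. The chip 1 genes were counted whether or not they passed the 25% limits on the other chip.

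Lineage genes and cell cycle genes were both among those with the fewest cells between. Dntt had 70.7%, 62.3% and 72.5% of cells at 0 and 28%, 33.3% and 24.6% at 20 or more reads, with 1.33%, 4.35% and 2.90% between. It fell just short of the 25% limit on chip 3. Mpo had 64%, 66.7% and 62.3% at 0, 32%, 27.5% and 30.4% at 20 or more and 4%, 5.80% and 7.25% between, and met the rule on each chip. Ccr2 was at 20 or more reads in 40%, 37.7% and 27.5% of cells and Cd34, the progenitor sialomucin, in 46.7%, 43.5% and 46.4%, and both also met it throughout. Lck, the kinase of T cell receptor signalling, and Gimap6, a GTPase of lymphocytes, met it on chips 1 and 2 only. Lck was at 20 or more reads in 29.3%, 26.1% and 17.4%. Gimap6 reached that level in 41.3%, 37.7% and 31.9%.

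Of the cell cycle genes Rrm1, the large subunit of ribonucleotide reductase, was at 20 or more reads in 65.3%, 55.1% and 60.9% of cells, and Top2a, the topoisomerase of chromosome separation, in 54.7%, 60.9% and 60.9%. Both had at most 14.5% of cells between on each chip. Inafm2 was as sharply divided, with 50.7%, 52.2% and 42.0% of cells at 20 or more and 4%, 0% and 7.25% between. Cct3, Mcm7 and Uhrf1, also among the 20 genes with the fewest cells between on chip 1, met the rule on neither other chip. Tsc22d3, a glucocorticoid-induced gene, was at 0 in 60%, 72.5% and 29.0% of cells, lowest on chip 3.

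**Figure D4:**
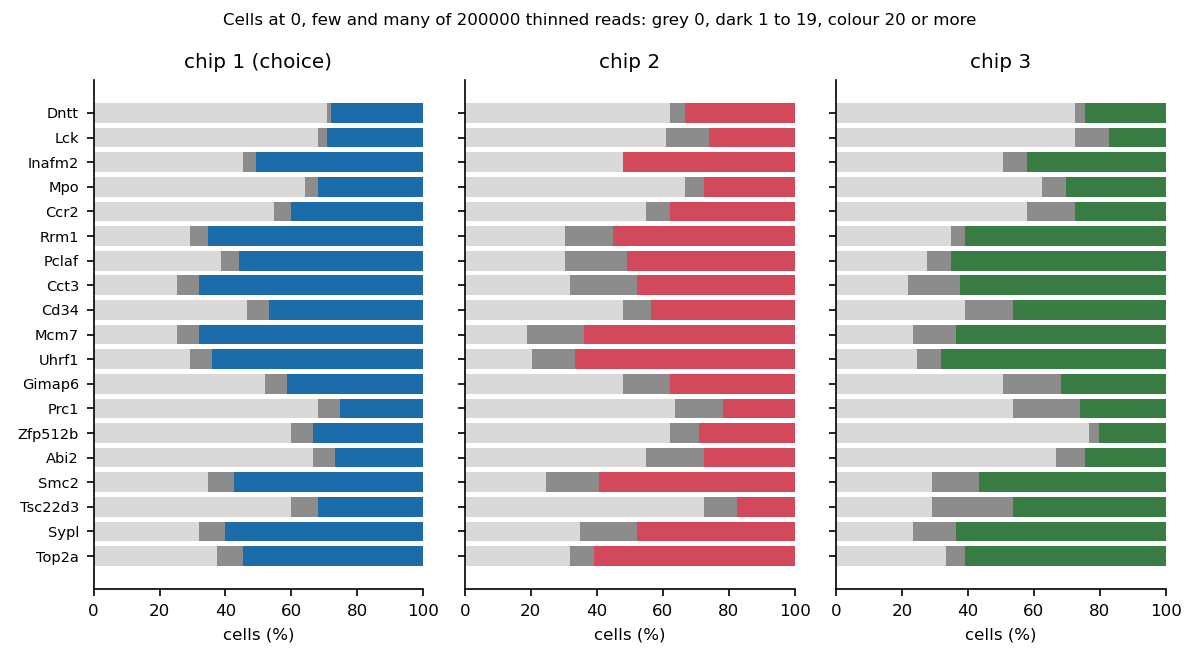
Share of cells at 0 reads (light grey), at 1 to 19 (dark grey) and at 20 or more of 200000 reads (colour), in percent, for 19 of the 20 on/off genes of chip 1 with the fewest cells between, on each chip. Dntt, Mpo, Inafm2 and Top2a keep a narrow dark band on chips 2 and 3, while that of Cct3, Prc1 and Tsc22d3 widens.

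Co-expression was described within each chip. The 1000 genes most variable for their level on chip 1 were grouped by Spearman correlation over its 75 cells, and the groups were then read on chips 2 and 3, with 69 cells each. The 35 modules had a median correlation of 0.329 on chip 1, where they were chosen, and of 0.124 and 0.156 on chips 2 and 3. All pairs of the 1000 genes had a mean of 0.0701 and 0.0756 there. A limit of 0.15 on both chips, set after the values were seen, kept 13 modules. Cells of a chip share their library preparation and differ in the number of genes detected. The mean correlation of each module was therefore also computed with that number held fixed. All pairs then had a mean of 0.00600 and 0.00823 on chips 2 and 3. Correlations of single genes with module scores, and of scores with each other, were not adjusted in this way.

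A lymphoid module had the highest correlation on chips 2 and 3 with that number held fixed. It holds 12 genes, led by Gimap6, Dntt, Nkg7 and Mn1 and with Lck, Cd69, Car2, Dok2, Gem, Gimap9, Cd81 and Il2rg. Its mean correlation was 0.36, 0.43 and 0.30 on the 3 chips and 0.367 and 0.292 on chips 2 and 3 with genes detected held fixed. Sox4 had a correlation of 0.54 on chip 1 and 0.38 and 0.31 on chips 2 and 3 with its score, Hoxa9 of 0.42 on chip 1 and 0.36 and 0.34 on chips 2 and 3 and Nr4a1 of 0.42 on chip 1 and 0.50 and 0.28 on chips 2 and 3. Among receptors outside the module Cd27, a marker of primitive lymphoid cells, had 0.53 on chip 1 and 0.64 and 0.40 on chips 2 and 3 and Notch1 0.48 on chip 1 and 0.38 and 0.52 on chips 2 and 3. Irf8 ran against it with -0.59 on chip 1 and -0.38 and -0.41 on chips 2 and 3, and Tyrobp with -0.63 on chip 1 and -0.55 and -0.58 on chips 2 and 3.

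A lysosomal and myeloid module of 41 genes ran opposite to it. Led by Cst3, Ctsh (cathepsin H), Lgals3, Irf8, Grn, Gm2a and Ccr2, it had a mean correlation of 0.33, 0.22 and 0.16, and of 0.236 and 0.168 on chips 2 and 3 with genes detected held fixed. Its score barely followed the number of genes detected (-0.02, -0.09 and -0.05). Its score had a correlation of -0.72, -0.67 and -0.71 with that of the lymphoid module, the most negative pair among the 13 modules on chips 1 and 3. Klf4, a factor of monocytes, had a correlation of 0.61 on chip 1 and 0.41 and 0.24 on chips 2 and 3 with its score and Fcer1g, a member, 0.56 on chip 1 and 0.48 and 0.54 on chips 2 and 3. Tox ran against it with -0.49 on chip 1 and -0.50 and -0.43 on chips 2 and 3.

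MHC class II genes formed a further block. Cd74, the invariant chain, H2-Aa, H2-Eb1 and H2-Ab1 grouped with Id2, Samd9l, Slamf7, Ckb and Btg2, with a mean correlation of 0.42, 0.46 and 0.30, and 0.355 and 0.225 on chips 2 and 3 with genes detected held fixed. Batf3, not a member, had a correlation of 0.66 on chip 1 and 0.67 and 0.70 on chips 2 and 3 with its score. Myb and Zeb2 ran against it, with -0.44 and -0.30 for Myb and -0.41 and -0.46 for Zeb2 on chips 2 and 3, and so did Cd93 with -0.60 and -0.43. Its score was negatively correlated with the number of genes detected (-0.57, -0.61 and -0.50). Its score also fell with that of the Top2a module (-0.52, -0.59 and -0.41). What part the number of genes has in that relation was not tested.

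Granule genes fell into 2 modules, whose scores had a correlation of 0.48, 0.41 and 0.54 with each other. The first, of 15 genes, holds Mpo, Cst7, Plac8, Clec12a and Ctsg with genes of the secretory pathway such as Ssr3 and Spcs2, and its mean correlation was 0.32, 0.19 and 0.18. With genes detected held fixed it was 0.0600 and 0.0739 on chips 2 and 3, above the all-pairs means on the same measure. The second, of 10 genes, holds Prtn3, Elane, Ms4a6c and F13a1, with a mean correlation of 0.36, 0.19 and 0.19, or 0.170 and 0.142 with genes detected held fixed. Zeb2 had a correlation of 0.43 on chip 1 and 0.50 and 0.37 on chips 2 and 3 with the score of the second, Csf1r 0.51 on chip 1 and 0.54 and 0.44 on chips 2 and 3 and Ly6c2 0.55 on chip 1 and 0.57 and 0.42 on chips 2 and 3. Cebpa had 0.42 on chip 1 and 0.18 and 0.36 on chips 2 and 3. These factors and Csf1r rose with the score of the first as well. Over the 3 chips Zeb2 had 0.50, 0.33 and 0.48, Csf1r 0.40, 0.39 and 0.39 and Cebpa 0.49, 0.26 and 0.17. The score of the first module followed the number of genes detected (0.73, 0.77 and 0.72), and these values are not adjusted for it.

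A T and innate lymphoid module of 12 genes was led by Tcf7, Ccl5, Il7r, Ets1, Sdc4, Il18r1 and Tox. Its mean correlation was 0.32, 0.18 and 0.20, and 0.170 and 0.207 on chips 2 and 3 with genes detected held fixed. Gata3, not a member, had a correlation of 0.79 on chip 1 and 0.56 and 0.67 on chips 2 and 3 with its score. Its score rose with that of the Dntt module (0.29, 0.35 and 0.43) and fell with that of the Cst3 module (-0.51, -0.62 and -0.49).

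The 2 largest modules followed the number of genes detected. One, of 62 genes, is led by Top2a, Pclaf, Rrm2, Stmn1 and Smc2, which act in DNA replication and chromosome segregation, and its mean correlation was 0.35, 0.26 and 0.30. The other, of 80 genes, is led by Uhrf1, Nop56, Ppat, Mcm4 and Hspd1, from replication licensing, nucleolus and mitochondrial protein folding, and its mean correlation was 0.31, 0.23 and 0.20. The correlation of their scores with the number of genes detected was high (0.80, 0.76 and 0.84 for the first and 0.88, 0.90 and 0.85 for the second). With that number held fixed the first had 0.123 and 0.110 and the second 0.0495 and 0.0603 on chips 2 and 3. Other modules followed that number as well, with 0.73, 0.77 and 0.72 for the Mpo module and 0.73, 0.81 and 0.81 for the Srsf7 module.

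**Figure D5:**
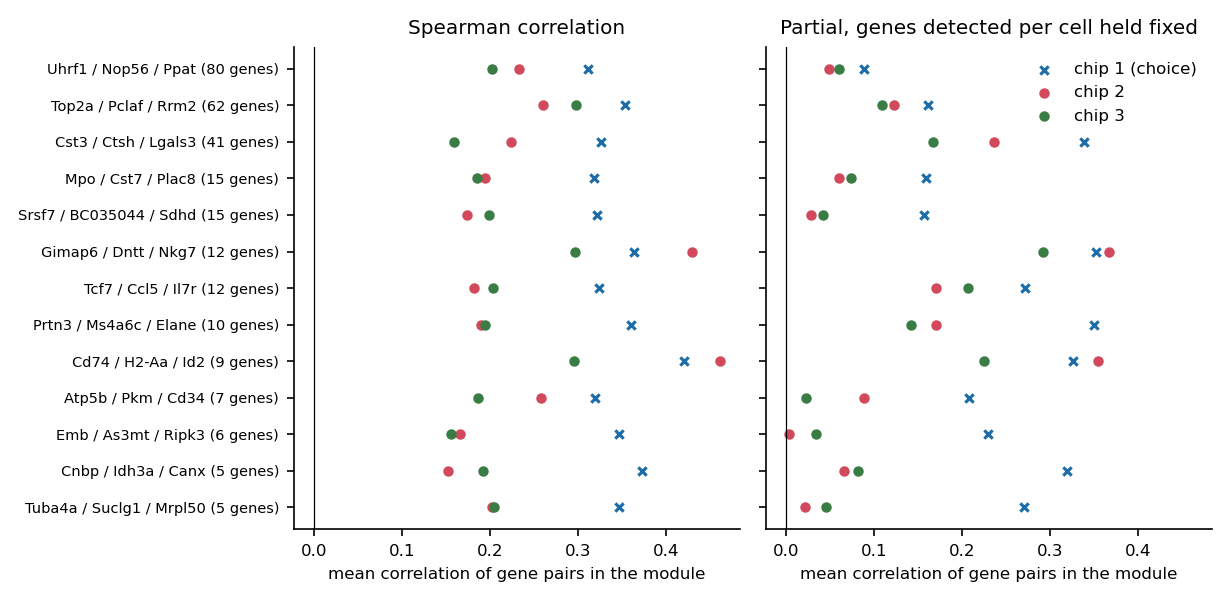
Mean correlation over the gene pairs of each of the 13 modules, as Spearman correlation on the left and with the number of genes detected per cell held fixed on the right, with a cross for chip 1, on which modules were chosen, and dots for chips 2 and 3. The Gimap6, Cd74, Cst3, Tcf7 and Prtn3 modules keep most of their correlation on the right. The Uhrf1, Srsf7, Emb and Tuba4a modules fall there to at most 0.0603 on chips 2 and 3 and stay higher on chip 1.

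Promoter sequences are shown for genes of 4 of these modules, to set the granule, MHC class II and cell cycle genes side by side. They are the 170 bases before the start of transcription as RefSeq places it on build GRCm38.p6, which is not the build of the counts. Capitals mark matches, on either strand, to GAGGAA (the core of PU.1 sites), TTGCNNAA (C/EBP), CCAAT (NF-Y), TTTGAA (the cell cycle homology region) and TGTGGT (Runx). The lines give Prtn3 (chr10:79879497-79879666, plus strand), Elane (chr10:79886142-79886311, plus strand), Mpo (chr11:87793614-87793783, plus strand), H2-Aa (chr17:34287824-34287993, minus strand), H2-Eb1 (chr17:34305697-34305866, plus strand) and Top2a (chr11:99024190-99024359, minus strand), each on its own strand.
Prtn3: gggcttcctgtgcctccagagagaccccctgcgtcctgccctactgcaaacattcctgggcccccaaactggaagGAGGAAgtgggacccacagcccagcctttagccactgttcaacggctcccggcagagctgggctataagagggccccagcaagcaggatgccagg
Elane: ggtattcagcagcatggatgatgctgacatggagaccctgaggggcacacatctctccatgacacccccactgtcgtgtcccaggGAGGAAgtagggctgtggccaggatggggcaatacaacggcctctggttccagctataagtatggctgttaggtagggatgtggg
Mpo: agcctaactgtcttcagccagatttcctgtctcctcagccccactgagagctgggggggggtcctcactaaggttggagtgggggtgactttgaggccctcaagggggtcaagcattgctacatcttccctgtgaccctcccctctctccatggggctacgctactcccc
H2-Aa: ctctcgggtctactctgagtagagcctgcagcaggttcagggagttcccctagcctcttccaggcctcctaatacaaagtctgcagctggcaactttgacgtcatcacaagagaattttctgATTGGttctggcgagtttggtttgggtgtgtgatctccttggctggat
H2-Eb1: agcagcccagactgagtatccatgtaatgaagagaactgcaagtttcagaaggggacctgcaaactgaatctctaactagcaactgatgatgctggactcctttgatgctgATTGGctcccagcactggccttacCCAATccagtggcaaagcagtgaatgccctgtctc
Top2a: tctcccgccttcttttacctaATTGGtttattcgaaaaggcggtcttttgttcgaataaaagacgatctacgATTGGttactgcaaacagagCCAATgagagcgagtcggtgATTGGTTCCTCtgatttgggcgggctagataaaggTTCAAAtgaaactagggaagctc

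Prtn3 and Elane, neighbours on chromosome 10 that encode proteinase 3 and neutrophil elastase, each hold 1 GAGGAA, beginning 95 and 85 bases before the start. Mpo holds none of the 5 motifs in these 170 bases. Over the 300 bases of each table entry, from 250 before the start to 50 after it, GAGGAA was found for 5 of 9 promoters (55.6%) of the Prtn3 module, 6 of 14 promoters (42.9%) of the Mpo module and 13 of 20 promoters (65%) of the granule and monocyte list, beside 28.3% of all promoters. H2-Aa holds CCAAT on the reverse strand, beginning 48 bases before the start, and H2-Eb1 holds it once on each strand. In the Cd74 module 6 of 7 promoters (85.7%) held CCAAT, and 8 of 16 promoters (50%) of the dendritic and MHC class II list, beside 37.9% of all. Top2a holds CCAAT 4 times and TTTGAA on the reverse strand 23 bases before the start, and its 1 GAGGAA lies directly beside a CCAAT. In the Top2a module 34 of 55 promoters (61.8%) held CCAAT and 23 of 55 promoters (41.8%) held TTTGAA, the latter beside 18.1% of all promoters. In the Uhrf1 module the counts were 32 of 66 promoters (48.5%) for CCAAT and 6 of 66 promoters (9.09%) for TTTGAA. The motifs were not confined to these sets. TTTGAA was also found for 5 of 14 promoters of the Mpo module, 3 of 7 of the Gimap6 module and 0 of 11 of the Srsf7 module. GAGGAA was found for 7 of 17 promoters of a list of G2 and mitosis genes and 1 of 7 of the Gimap6 module. Modules were drawn from genes detected in at least 10% of chip 1 cells. Among these the shares were 26.9% for GAGGAA, 39.5% for CCAAT and 12.6% for TTTGAA. A match of letters is not a bound site.

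Cells with Elane mostly held the other granule genes as well. Of cells with Elane, 22 of 23 also had Mpo, 22 of 23 had Prtn3 and 18 of 23 had Ctsg. In the other direction, 22 of 74 cells with Mpo had Elane and 49 of 80 cells with Prtn3 had Mpo. Ctsg, which encodes cathepsin G, was detected in 42.3%, 36.4% and 57.7% of cells with Mpo and in 4.08%, 0% and 11.6% of cells without it. All 5 cells with Ms4a3, a gene of granulocyte and monocyte progenitors, had Prtn3, Mpo, Ctsg and Elane. These genes and those of the following families were chosen for this view after their values were seen. Cells also differ in the number of genes detected. The score of the Mpo module rose with that number (0.73, 0.77 and 0.72) and that of the Cd74 module fell (-0.57, -0.61 and -0.50). The part of this in the overlaps was not tested.

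Antigen presentation genes overlapped in part. Of cells with H2-Eb1, 40 of 43 had Cd74 and 34 of 43 had H2-Aa, while 40 of 93 cells with Cd74 had H2-Eb1. Of cells with H2-Ab1, 50 of 65 had Cd74, and of those with Ciita 15 of 18 did. Ciita, the class II transactivator, was detected in 18 cells, and 17 of these had H2-Ab1 against 24.6% of the other cells. Of cells with Batf3, 25 of 26 had Cd74 and 22 of 26 had H2-Aa.

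Among lymphoid genes Gimap6 was the widest. It was detected in 95.5%, 88% and 83.3% of cells with Dntt and in 24.5%, 31.8% and 35.3% of cells without. Lck was detected in 77.3%, 64% and 55.6% of cells with Dntt and in 11.3%, 15.9% and 15.7% without. Rag2, of the recombinase, was found in 15 of 65 cells with Dntt and Rag1 in 3 of 65. Ly6d was detected in 18.2%, 28% and 44.4% of cells with Dntt against 11.3%, 9.09% and 7.84% of cells without it, higher on each chip. Tcf7 was found with Gata3 more often than with Dntt. Of cells with Tcf7, 15 of 24 had Gata3 and 5 of 24 had Dntt. Dntt was detected in 31.7% of the cells without Tcf7. None of the 24 cells with Tcf7 had Rag2, which was detected in 10.1% of the others.

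Each marker gene was also correlated with all 6919 other genes detected in at least 10% of chip 1 cells. Vim was not in the Cst3 module. It led a module of 5 genes with a mean correlation of 0.11 and 0.16 on chips 2 and 3. Cst3, Irf8 and Vim rose together, with correlations over the 3 chips of 0.57, 0.52 and 0.41 for Cst3 and Irf8, 0.51, 0.73 and 0.58 for Cst3 and Vim and 0.49, 0.50 and 0.44 for Irf8 and Vim. Mpo did not rise with Cst3 (-0.06, -0.14 and -0.19), and its correlation with Cd93 was 0.34, 0.38 and 0.24. Mpo (0.47, 0.43 and 0.30) and Cd93 (0.44, 0.58 and 0.58) both followed the number of genes detected, and with that number held fixed their correlation was 0.18, 0.18 and 0.08. Cd93 and Cst3 had -0.29, -0.22 and -0.25, or -0.32, -0.03 and -0.13 with genes detected held fixed. Held fixed in the same way, an adjustment added after the data were seen, Cst3 and Irf8 had 0.58, 0.56 and 0.40, Cst3 and Vim 0.51, 0.77 and 0.56 and Irf8 and Vim 0.49, 0.50 and 0.44.

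Of the genes highest with Cst3 on chip 1, Gm2a, a lysosomal lipid activator, had 0.63, 0.62 and 0.55 and Lgals3, galectin 3, 0.58, 0.70 and 0.57. Plbd1, detected in only 11.2% of cells, had 0.61, 0.58 and 0.52 and Anxa2, annexin A2, 0.64, 0.47 and 0.36. Myadm (0.59, 0.66 and 0.11) and Ctsh (0.62, 0.54 and 0.25) were much lower on chip 3. Tcf7 and Tox were among the lowest, with -0.54, -0.35 and -0.35 and -0.50, -0.50 and -0.29. With Mpo the proteases Ctsg (0.65, 0.63 and 0.72) and Elane (0.56, 0.53 and 0.65) kept their correlation on the other chips, whereas Plrg1 (0.56, 0.19 and 0.01) did not. Lsp1, a leukocyte actin-binding protein, and Id2 were among the 4 lowest with Mpo on chip 1, at -0.52, -0.54 and -0.39 and -0.46, -0.40 and -0.35. With Irf8 the highest was Lgals1 (0.60, 0.51 and 0.52) and the lowest Tox (-0.51, -0.35 and -0.33). Fgd2, also among the highest with Irf8 on chip 1, had 0.59, 0.38 and 0.01. The gene highest with Vim on chip 1, Ltn1, had 0.52, -0.17 and -0.09. Cd93 was most negative with Batf3 (-0.47, -0.49 and -0.47). The 8 genes highest with Cd93 on chip 1 had a mean correlation with it of 0.47, 0.21 and 0.23.

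Counting a list as held when at least 3 of its members were detected, with genes shared between lists left out, 170 of 213 cells held the granule and monocyte list, 178 the dendritic and MHC class II list and 177 the early lymphoid list. The granule and the early lymphoid list were held together by 142 cells, 66.6% ± 3.75 over chips. The early lymphoid list was held by 83.5% of cells with the granule list and by 81.4% of those without it, so cells with one list did not hold the other much more often. Broadly detected members count towards this, such as Calr in 83.2% ± 4.21 and H2-DMa in 81.6% ± 4.17 of cells, and Ikzf1 in the lymphoid list. The B lineage list was held by 53 cells, and of its members Cnp was detected in 50.2% ± 0.821 and Cd79b in 33.3% ± 2.90. The T and innate lymphoid list was held by 17. With 4 members asked for, the share with the granule and early lymphoid lists together was 44.2%.

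Mpo, Dntt and H2-Aa were also compared cell by cell, each taken as high at 20 or more reads. Of 213 cells 67 had none of them, 45 only Mpo, 40 only Dntt and 39 only H2-Aa. Mpo and Dntt without H2-Aa were high together in 14 cells, Dntt and H2-Aa without Mpo in 3, Mpo and H2-Aa without Dntt in 1, and all of them in 4. H2-Aa was high in 2 of 24, 0 of 19 and 3 of 21 cells high in Mpo (8.33%, 0% and 14.3%). In the others its share was 25.5%, 38% and 20.8%, higher on each chip. Dntt showed no such order, with 29.2%, 42.1% and 14.3% of cells high in Mpo against 27.5%, 30% and 29.2% of the others, which is lower on chip 3 only. The 4 cells high in all of them were on chips 1 and 3, where no cell had Xist, so the check of Xist against Y-linked reads could not apply to them, and they were not examined for doublets otherwise. Mpo rose with the number of genes detected, and the score of the Cd74 module, which holds H2-Aa, fell with it. The part of this in the shares of H2-Aa was not tested.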

How the data were processed

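Full-length cDNA of each cell was made on a Fluidigm C1 chip by the SMARTer method and turned into Nextera XT libraries, per the labels. These do not mark strand, so antisense or overlapping genes share reads. The authors deposited raw read counts per gene and cell, without normalisation, and a column of gene lengths. Build mm9 and R 3.2.0 are named per the submitters' processing notes. No aligner, counting program or annotation is given in the sources used here. Of 232 TN cells captured, per the design text, those with under 60% of reads mapped, too few counts or under 800 detected genes were left out. A few genes are not reported here. No further cell was removed, and no doublet caller was run.

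Symbols came by Entrez number from a RefSeq table of GRCm38.p6 for 23334 of 23427 genes, and 93 kept their number. TPM was computed from counts and the deposited gene lengths, and CPM without lengths. For detection each cell was thinned at random to 200000 reads. The replicate was the chip. Genes for uniformity, on/off states, modules (average linkage, cut at a mean correlation of 0.25, at least 5 genes) and marker correlations were chosen on chip 1 and read on chips 2 and 3. Genes named are the 25 most abundant, the 20 lowest in CV, the 20 on/off genes with the fewest cells between, leading module members, the highest 8 and lowest 4 per marker, and members of 24 lists chosen by detection. No hypothesis test was made, since a single population is described and cells are not replicates. The lists and rules were chosen with earlier results of these data known. The correlations of transcription factors and receptors with module scores, the limit of 0.15, the co-detection counts and the adjusted correlations of marker pairs were added after the data were seen. Alternatives were the detection limit, sparse cells, each chip, the unnamed row, CPM for TPM, and other cut-offs and correlations. The steps were tested on simulated data with known answers, with Python 3.11.15, numpy 2.4.6, scipy 1.17.1 and pandas 2.3.3.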

Additional observations from a re-analysis of the deposited data

How the results depend on the processing

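Of 88 alternative values for 11 results, 59 stayed within the SD over chips or, for counts, within 1.5 times. None of the correlations changed sign, and the other results cannot be negative. The counts of transcription factors and receptors in at least 20% of cells, the share of uniform genes common to chips and the correlations of marker-linked genes were among those that stayed under every alternative run. Genes detected per cell, 2521 as given, came to 3339 at a limit of 1 read, 1659 at 20 reads and 2641 without the cells of fewer than 1500 genes. Under the same changes, in that order, the 21 genes of every cell became 43, 6 and 57, and the 66.6% of cells with granule and early lymphoid lists together became 76.0%, 44.5% and 71.5%. That share was 85.5% with 2 members asked for and 44.2% with 4. Leaving out 1 chip at a time gave 26 to 37 genes of every cell. By CPM without length, the 25 genes leading on that scale, chosen anew, took 8.62% of the signal. On/off genes, 177 on chip 1 and 23 on all chips, numbered 40 and 3 with at most 10% of cells between, and 463 and 74 with at most 20%. With 1 chip left out 42 to 50 met the rule on both remaining chips, where fewer chips are asked for. The mean correlation of modules on chips not used to choose them, 0.152, was 0.14997 at a limit of 1 read, 0.137 at 20 reads, 0.121 without cells of few genes and 0.157 without the unnamed row. It was 0.125 and 0.128 with modules chosen on chip 2 and on chip 3, 0.132 to 0.153 with 1 chip left out, 0.168 as Pearson correlation of log2(CPM + 1), and 0.0673 with genes detected held fixed. Apart from this last value, whose construction removes what cells share through the number of genes detected, the cause of each shift in correlation was not tested. Depth limits detection, so a gene at 0 in a cell of few reads is not shown to be absent. No TN cell held both Xist and Y-linked reads, so leaving out such cells changed nothing.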

Other observations

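Stem cell and stress genes add to the picture of these cells. Of 18 stem and multipotent progenitor genes, Procr, Slamf1, Tek and Fgd5 had no read in any TN cell and Mecom was detected in 1 cell. Cd34 was detected in 51.6% ± 3.27 of cells, Msi2, an RNA-binding regulator of self-renewal, in 38.3% ± 7.32, Angpt1 in 21.4% ± 6.76 and Meis1 in 13.3%, 18.8% and 10.1%. Immediate early genes were widely present, with Zfp36, which destabilises cytokine mRNA, in 82.5% ± 4.20 and Dusp1 in 63.9% ± 8.04, whereas the heat shock genes Hspa1a and Hspa1b were detected in 0%, 0% and 4.35% and 1.33%, 0% and 8.70%. Nr4a1 was detected in 46.7%, 34.8% and 17.4% and Atf3 in 18.7%, 14.5% and 43.5%, with chip 3 lowest for the former and highest for the latter.

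The row without a symbol, Entrez100861531, differed between chips more than any other of the 25 most abundant genes in its spread over cells, with a CV of 0.366, 0.563 and 1.73. It took 0.970%, 1.08% and 0.403% of a cell's reads on average, and up to 5.90%.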
